A study of Mus musculus with 4 samples.

Results

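Mature migratory dendritic cells are antigen-presenting cells that have switched on the chemokine receptor Ccr7. They were found here by counting transcripts of 9 genes in each cell. A cell was taken as a mature Ccr7 dendritic cell when Ccl22, Fscn1 and Ccr7 together gave at least 5 UMIs (unique molecular identifiers, the counted transcripts), with at least 1 each of Fscn1 and Ccr7. It also had to hold fewer than 10 UMIs of the macrophage genes C1qa, C1qb and C1qc, and none of Cd3e (T cells), Cd79a (B cells) or Epcam (epithelium). The rule found 53 of 7304 cells in the vehicle library and 38 of 6227 in the tamoxifen library, 91 of 13531 in all. The levels of the genes in the rule chose the cells, so they are given only as a description.

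A dendritic cell that has taken up antigen matures: it raises costimulatory molecules and Ccr7, follows the ligands of Ccr7 into lymphatic vessels, and presents antigen to T cells in the draining lymph node. In tumours such cells carry stimulatory and inhibitory surface molecules side by side, and they are known as a source of Ccl22 and Il12b. Both of the conventional dendritic cell types, the cross-presenting Xcr1 type (cDC1) and the Cd209a or Sirpa type (cDC2), can mature in this way.

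The cells came from lung tumours of KPH mice, whose alleles include frt-flanked p53 (p53frt), a Flp-activated CreERT2 at Rosa26 (Rosa-FSF-CreERT2) and floxed Hnf4a (Hnf4aflox). All of the mice carried these alleles, and all tumours were started with an adenovirus that drives FlpO from a surfactant protein C promoter, which is active in alveolar type 2 cells. Tamoxifen or vehicle was injected 10 weeks later and tumours were collected after a further 2 weeks. Individual macroscopic tumours were dissociated, one portion was frozen before depletion, and the rest passed over magnetic beads that remove CD45-positive (blood) and CD31-positive (endothelial) cells before freezing. The titles of the vehicle libraries read KP and those of the tamoxifen libraries KPH. The labels give the vehicle as ethanol in one field and as corn oil in another, and do not give the number of animals or tumours in a suspension or the age of the animals. CreERT2 needs Flp, which the virus directs to lung epithelium. The mature dendritic cells held 0 UMIs of Cre in both libraries.

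There was 1 library in each of the 4 groups (vehicle and tamoxifen, before and after depletion), so differences have no replicate check and no test was made. Cells are not replicates, and every interval covers counting error only. The 4 libraries held between 92644997 and 144994771 UMIs, with medians of 9519 to 17859 UMIs per kept cell. The level of Hnf4a went against the treatment label. Level is given as CPM, the UMIs of a gene scaled to a fixed total of the summed UMIs of a gate. Before depletion, cells with at least 2 Epcam UMIs held 39.5 Hnf4a CPM with vehicle and 63.0 CPM in the library labelled tamoxifen. After depletion they held 55.8 and 82.2 CPM. The sources used here do not give the floxed exons, and tags at the 3′ end of the transcript check nothing about them, so each direction below refers to a library by its label. The mature dendritic cells held 0 Hnf4a UMIs in both libraries, which allows up to 3.62 CPM in the vehicle library and 5.57 CPM in the tamoxifen library. Pairs of libraries shared 10 to 18 cell barcodes, and 1 mature dendritic cell of the tamoxifen library had a barcode that also occurred in the tamoxifen library after depletion.

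Mature dendritic cells made up 0.726% of kept cells in the vehicle library (Clopper-Pearson 95% interval 0.544 to 0.948) and 0.610% in the tamoxifen library (0.432 to 0.837). The intervals overlapped widely. Among all dendritic cells gated by their transcripts, they were 53 of 145 in the vehicle library (36.6%, 28.7 to 45.0) and 38 of 116 in the tamoxifen library (32.8%, 24.3 to 42.1). Bead depletion left 1 such cell of 7043 after vehicle and 0 of 7511 after tamoxifen, the latter allowing a share of up to 0.0399%. The 1 cell that remained held 7 Hnf4a UMIs in 31011 UMIs. The mature cells were deep, with a median of 14659 UMIs and 3706 genes in the vehicle library and 15301.5 UMIs and 3516 genes in the tamoxifen library. They gave 828011 and 538239 UMIs in sum.

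The Ccl22, Fscn1 and Ccr7 sum ranged from 5 through a median of 85 to 495 UMIs in the vehicle library, and from 7 through 69.5 to 377 in the tamoxifen library. Just inside the limit, with a sum of 5 or 6, lay 1 cell of the vehicle library and 0 of the tamoxifen library, and just outside, with a sum of 3 or 4, lay 1 cell in each. A sum of at least 5 with no Fscn1 UMI was found in 17 and 12 further cells that met the conditions on other cell types, and with no Ccr7 UMI in 30 and 19. The condition that decided most memberships was the one on Epcam. Of 114 and 73 cells that passed on Ccl22, Fscn1 and Ccr7, 61 and 35 were excluded, and 38 and 21 of these were excluded by Epcam alone. In 24 of the 38 and 15 of the 21, the Epcam count was only 1 or 2 UMIs. Cells excluded by Epcam alone held 4739 CPM of Ccl22 in the vehicle library and 3152 CPM in the tamoxifen library, levels near those of the members given below. They also held more Sftpc, the surfactant gene of type 2 cells, at 5804 and 2897 CPM, against 967 and 245 CPM in the members and 43470 and 45910 CPM in Epcam cells. Whether free RNA, attached epithelial cells or transcription of Epcam placed these UMIs there was not tested. Without the Epcam condition, a choice examined after seeing the data, the shares became 1.25% (91 cells) and 0.948% (59 cells).

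All 5 marker genes were high, 3 of which the rule used. Ccl22, a chemokine that attracts Ccr4-bearing T cells, stood at 3758 CPM (exact Poisson 95% interval 3628 to 3893) in vehicle members and 3970 CPM (3804 to 4142) in tamoxifen members. Fscn1, the actin-bundling protein of dendritic cell protrusions, stood at 1429 CPM (1348 to 1513) and 1341 CPM (1245 to 1443). Ccr7 stood at 1752 CPM (1663 to 1845) and 1782 CPM (1671 to 1898). The pair outside the rule were high as well: Il12b, the p40 chain shared by IL-12 and IL-23, at 731 CPM (674 to 791) and 634 CPM (568 to 705), and Cacnb3, a calcium channel subunit, at 496 CPM (450 to 547) and 444 CPM (390 to 504). Members were fewer than 1 cell in 100 yet supplied 31.9% of all Ccl22 UMIs of kept cells in the vehicle library and 41.6% in the tamoxifen library. For Fscn1 these shares were 35.3% and 35.6%, for Il12b 34.4% and 31.8%, and for Cacnb3 23.98% and 19.1%. Ccr7 was shared more widely, since B cells held 372 and 332 CPM of it and T cells 139 and 160 CPM. On GRCm38 the genes lie at chr8:94745590-94751699 (Ccl22), chr5:142960343-142973185 (Fscn1), chr11:99144196-99155077 (Ccr7), chr11:44400063-44414033 (Il12b) and chr15:98630840-98644529 (Cacnb3).

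**Figure D1:**
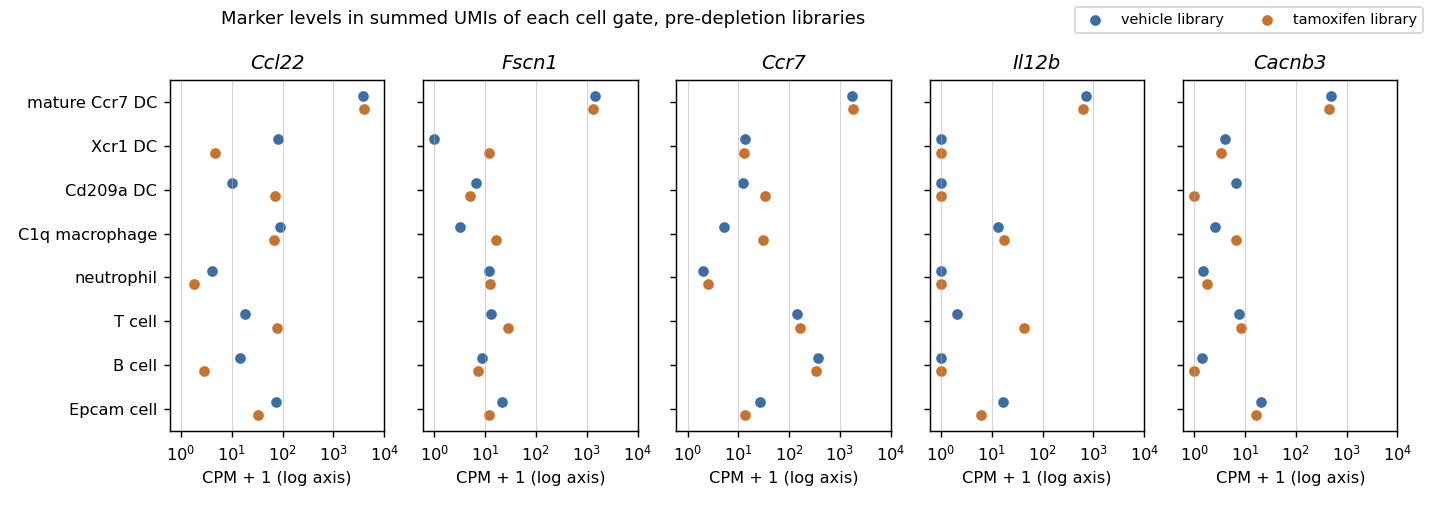
Levels of the 5 marker genes in the summed UMIs of 8 cell gates, as CPM plus 1 on a log axis, with 1 point for each pre-depletion library (blue vehicle, orange tamoxifen). Mature dendritic cells are the rightmost points in every panel, and B and T cells follow them for Ccr7.

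Other dendritic cell genes fitted the label in part. Flt3, the growth factor receptor of the lineage, was at 289 and 193 CPM, and Zbtb46, a transcription factor of conventional dendritic cells, at 220 and 175 CPM. Itgax (CD11c) was low, at 35.0 and 26.0 CPM, against 144 to 205 CPM in the Xcr1 and Cd209a gates. The markers Xcr1, Cd209a, Siglech, Ccr9 and Klk1 had 0 UMIs in all 91 cells. Xcr1 and Cd209a mark the immature conventional types, and the others mark plasmacytoid dendritic cells or their subsets. Other markers of these types were low but present. Clec9a, used with Xcr1 for the Xcr1 gate, stood at 7.25 and 5.57 CPM. The plasmacytoid list had UMIs in 5 of 53 vehicle members and 0 of 38 tamoxifen members, with Ly6d at 10.9 CPM in vehicle members. Cycling genes were close to absent, with Mki67 at 9.66 and 3.72 CPM and Top2a at 4.83 and 7.43 CPM.

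Members varied widely in the chemokines and cytokines they made. Ccl22 ran from 0 UMIs through a median of 25 to 400 per cell in the vehicle library, and from 0 through 26.5 to 324 in the tamoxifen library. The 5 highest cells held 46.6% and 53.4% of it. Il12b was far more uneven: 25 of 53 and 11 of 38 members had any UMI, the median was 0 in both libraries, the highest cells had 173 and 92 UMIs, and the 5 highest held 77.2% and 92.96% of the total. Ccl17, which shares the receptor Ccr4 with Ccl22, was found in 40 of 53 and 31 of 38 members. Ccl5, which attracts T cells and other leukocytes, was found in 38 of 53 and 28 of 38, with up to 1623 UMIs in 1 vehicle cell and 852 in 1 tamoxifen cell. Cd274, which encodes the checkpoint ligand PD-L1, was even by comparison, since 53 of 53 and 36 of 38 members held it and the 5 highest cells had 23.1% and 32.7%. Aldh1a2, the retinoic acid synthesis enzyme, was seen in 21 of 53 and 15 of 38. Ido1, a tryptophan-degrading enzyme often named in regulatory dendritic cells, had 0 UMIs in every member.

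**Figure D2:**
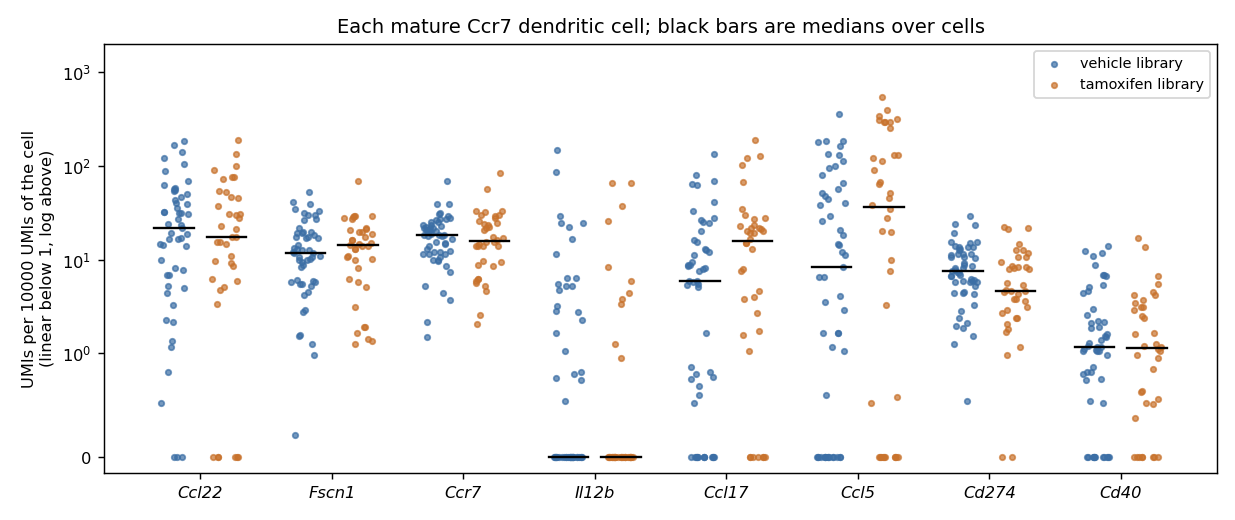
UMIs of 8 genes per 10000 UMIs of the cell (linear below 1, log above), 1 point for each mature dendritic cell, blue for the 53 vehicle cells and orange for the 38 tamoxifen cells, with black bars at the medians. Il12b sits at 0 in most cells, and Ccl5 spans from 0 to 540.2. Cd274 lies above 0 in 53 of 53 vehicle and 36 of 38 tamoxifen cells and reaches 29.4.

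Depth enters these shares, so each cell was also thinned to 2000 UMIs, which left out 1 vehicle cell. Il12b was then seen in 30.8% of vehicle members (16 of 52) and 15.8% of tamoxifen members (6 of 38), against 0 of 508 and 1 of 352 T cells (median depths 6625.5 and 6950 UMIs before thinning). Ccl17 was seen in 55.8% and 68.4%, against 0.984% and 1.14% of T cells. Cd209a dendritic cells had Ccl17 more often than T cells, at 17.1% and 27.8%. Cd274 was seen in 82.7% and 73.7% of members, against 13.6% and 13.4% of T cells. It was also seen in 34.0% and 13.3% of Xcr1 dendritic cells, 17.1% and 22.2% of Cd209a dendritic cells, and 27.8% and 31.1% of neutrophils, which are shallower. Aldh1a2 was seen in 7.69% and 5.26%, with 0 in T cells of both libraries, and its thinned level is too near 1 UMI to compare libraries.

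Il12b-bearing members differed from the rest in other genes. This split was made after the data were seen, on cells of the same library, and is given without a test. Depth was close, with median UMIs of 14659 and 14126.5 with and without Il12b in the vehicle library and 16014 and 13936 in the tamoxifen library. In both libraries Il12b-bearing members had more Fscn1 (1867 against 1009 CPM in vehicle, 1969 against 1031 CPM in tamoxifen), more Cacnb3 (615 against 383 CPM, 606 against 364 CPM) and more Serpinb9, an inhibitor of granzyme B (585 against 347 CPM, 942 against 422 CPM). Irf8, the transcription factor on which cDC1 depend, stood at 620 against 206 CPM in vehicle members and 623 against 447 CPM in tamoxifen members. Stat4, a signal transducer of IL-12, stood at 899 against 355 CPM and 836 against 597 CPM. Members without Il12b had more Il1b, at 1498 against 301 CPM and 836 against 516 CPM, and more Sirpa, a surface receptor of cDC2, at 277 against 148 CPM and 225 against 72.9 CPM. Each of these 7 genes was still higher in the same set of both libraries when its highest member of that set was left out, a check that mostly narrows the gap. The narrowest gaps left, in ratio, were 683 against 597 CPM for Stat4, 553 against 447 CPM for Irf8 and 683 against 516 CPM for Il1b, all in the tamoxifen library. The highest Il1b member of the vehicle library was also the cell with most of the neutrophil-list UMIs given below, and without it Il1b stood at 1191 CPM. That cell lacked Il12b, as did the tamoxifen members of 14848 and 15964 UMIs, described below for monocyte-list and lymphocyte-list UMIs. Each of them held 2 Fscn1 UMIs and 0 Cacnb3 UMIs. The vehicle members with most of the fibroblast-list and epithelial-list UMIs held 4 and 1 Il12b UMIs and fell in the other set. The part of such cells in the gaps of Fscn1, Cacnb3 and the other genes was not tested. Ccl17 and Ccl5 could not be read by this split, because 1 vehicle member without Il12b held 617 of 1153 Ccl17 UMIs and 1623 of 2929 Ccl5 UMIs of its set. Without that cell, vehicle members lacking Il12b had 1421 CPM of Ccl17 and 3462 CPM of Ccl5, against 1349 and 4451 CPM in members with Il12b. The 7 genes are part of a longer set looked at, and other cDC1 genes did not follow Irf8. Naaa was lower with Il12b, on few UMIs, at 22.2 against 47.3 CPM in vehicle and 5.61 against 30.6 CPM in tamoxifen. Wdfy4 and Cadm1 were lower with Il12b in vehicle and higher in tamoxifen members, and Batf3 the reverse. The split is therefore not read as cDC1 against cDC2.

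Traces of the immature type were weak. After thinning to 2000 UMIs, 6 of 52 vehicle members held UMIs of the 9-gene cDC1 list only, 13 of the 9-gene cDC2 list only, 9 of both and 24 of neither. In the tamoxifen library 5 of 38 held cDC1 genes only, 7 cDC2 genes only, 4 both and 22 neither. The lists did not separate the comparison gates at this depth either. In the Cd209a gate of the vehicle library, 14 of 41 cells held cDC2 genes only and 27 held both. In the Xcr1 gate, 32 of 50 vehicle cells and 32 of 60 tamoxifen cells held both, and 8 in each library held cDC2 genes only. Another random draw put 25% of vehicle members in the cDC1-only set, against 11.5% in the first, so the sets are not stable at this depth and are ranges of a count, not types. By level, Wdfy4, which acts in cross-presentation, stood at 127 and 70.6 CPM in members against 652 to 741 CPM in the Xcr1 gate, and Naaa at 35.0 and 22.3 CPM against 576 to 915 CPM. In the comparison with both gates described next, 0 of 7 cDC1 genes were higher and 1 lower (0 and 1 of 9 after cleaning), and 0 of 8 cDC2 genes were higher and 5 lower (0 and 5 of 8), genes that in part define those gates.

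To show where mature cells differ from other dendritic cells, their summed UMIs were set against 2 gates of the same library: cells with at least 2 UMIs of Xcr1 and Clec9a (50 vehicle, 60 tamoxifen) and cells with at least 2 UMIs of Cd209a (42 vehicle, 18 tamoxifen). A gene was counted when it differed at least 2-fold in the same direction in all 4 ratios, each with 10 CPM added to both levels, among genes with at least 50 CPM. Of 4101 genes, 313 were higher in mature cells (7.63%) and 286 lower (6.97%), with a median log2 ratio of -0.18. Scaling by the trimmed mean of M values (TMM) moved that median to 0.02 and the split to 393 higher and 212 lower. The same cells supplied the rule and these levels, so the counts describe the gate and test nothing. The comparison gates were mixed. Siglech, a plasmacytoid marker, had UMIs in 9 of 50 and 7 of 60 cells of the Xcr1 gate and 17 of 42 and 5 of 18 of the Cd209a gate. More than 2 UMIs of the macrophage genes Chil3, Marco and Ear2 were found in 25, 23, 3 and 2 cells of the same gates, and the endothelial gene Cdh5 in 10, 11, 16 and 2. When cells with any of these were left out, 12, 21, 22 and 11 cells remained and 300 genes were higher and 180 lower, of which 239 and 130 were among those first counted. Counts from these smaller gates are called counts after cleaning, a choice made after seeing the data. Members were not cleaned, although 6 of 53 vehicle and 2 of 38 tamoxifen members held more than 2 UMIs of Chil3, Marco and Ear2. The same conditions, which also asked for 0 Ly6d UMIs, would have kept 44 and 36 members. The genes that reached the minimum changed with the gates. The shares of 7.63% and 6.97% are therefore not the background of the counts after cleaning.

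Single chemokines and cytokines lay far above the other gates, while their lists had medians of -0.17 and -0.41, against -0.18 over all genes. Ccl5 stood at 5714 and 9631 CPM in members against 1.85 to 13.8 CPM in the other gates. Il12b had 0 UMIs in all 4 of them. Ccl17 stood at 2052 and 3526 CPM against 152 to 603 CPM, and Cxcl16, a membrane-bound ligand of Cxcr6 on T cells, at 675 and 792 CPM against 109 to 236 CPM. Ccl4 was lower, at 19.3 and 18.6 CPM against 328 to 1137 CPM. Of the 7 chemokines measured beside Ccl22, 3 were thus higher and 1 lower (2 and 1 of 6 after cleaning, where Cxcl16 was no longer counted). Il15 and its carrier Il15ra, which together sustain natural killer and memory T cells, were the 2 higher of 6 cytokine genes, and Tgfb1 was the 1 lower (2 and 0 of 5 after cleaning). Il15ra stood at 118 and 110 CPM against 4.05 to 7.17 CPM. Ccl19, another ligand of Ccr7, had 0 UMIs in members of both libraries.

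Costimulatory genes were higher as a group, with 7 of 11 counted higher, 0 lower and a median log2 ratio of 1.64 (5 of 11 after cleaning). Cd40, the receptor for T cell help, stood at 227 and 221 CPM against 3.58 to 44.5 CPM, and Tnfrsf4 (OX40) at 197 and 139 CPM against 0 to 1.19 CPM. Tnfrsf9 (4-1BB), Tnfsf4 (OX40 ligand) and Icam1, an adhesion ligand for T cells, were also higher before and after cleaning. Cd86 stood at 1165 and 1098 CPM against 324 to 525 CPM, but at 472 to 827 CPM in the cleaned gates, where it and Cd83 were no longer counted.

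Regulatory genes were higher at the same time: 8 of 11 were counted higher and 1 lower, with a median of 2.76 (7 and 2 after cleaning). Cd274 stood at 853 and 643 CPM against 133 to 201 CPM. Pdcd1lg2, the second PD-1 ligand, stood at 243 and 195 CPM against 3.58 to 44.5 CPM, and Cd200, which signals to an inhibitory receptor on myeloid cells, at 304 and 314 CPM against 8.09 to 46.6 CPM. Socs2, a cytokine signalling inhibitor, stood at 466 and 463 CPM against 22.2 to 84.0 CPM. Il4i1, a secreted amino acid oxidase, stood at 545 and 713 CPM against 1.19 to 174 CPM. Aldh1a2 was at 68.8 and 65.0 CPM against at most 5.97 CPM. Entpd1 (CD39), which breaks down extracellular ATP, was the lower one, at 8.45 and 9.29 CPM against 32.4 to 110 CPM.

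Migration and cytoskeletal genes followed, with 9 of 15 higher and 0 lower (8 after cleaning) and a median of 2.08. Tbc1d4, a Rab GTPase-activating protein, stood at 1758 and 1572 CPM against 84.9 to 212 CPM. Marcks, an actin-binding substrate of protein kinase C, stood at 1359 and 1230 CPM against 172 to 252 CPM, and the adaptor Samsn1 at 1465 and 1126 CPM against 147 to 271 CPM. Marcksl1, Anxa3, Swap70, Myo1g, Adam23 and Gyg completed the 9, of which Adam23 was not counted after cleaning.

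Antigen presentation was split between the classes. Of 11 MHC class II genes 0 were higher and 2 lower (0 and 4 of 12 after cleaning), with a median of -0.40. H2-Aa stood at 3386 and 3261 CPM, within the 2553 to 6839 CPM of the other gates but below the 5694 to 8855 CPM of the cleaned gates. H2-DMb1, a chain of the peptide-loading chaperone, stood at 90.6 and 85.5 CPM against 387 to 638 CPM, and H2-DMa, its partner, at 215 and 180 CPM against 442 to 845 CPM. Of 11 MHC class I genes 3 were higher and 0 lower in both versions, with a median of 0.86. B2m, the light chain of class I, stood at 3208 and 3822 CPM against 1160 to 1763 CPM, H2-K1 at 2113 and 2774 CPM against 856 to 1294 CPM, and Psme2, an interferon-induced proteasome activator, at 922 and 1044 CPM against 215 to 311 CPM. Uptake receptors were not counted higher, with 3 of 10 lower (Mrc1, Fcgr3 and Tlr2), but 0 of 8 in the cleaned gates.

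**Figure D3:**
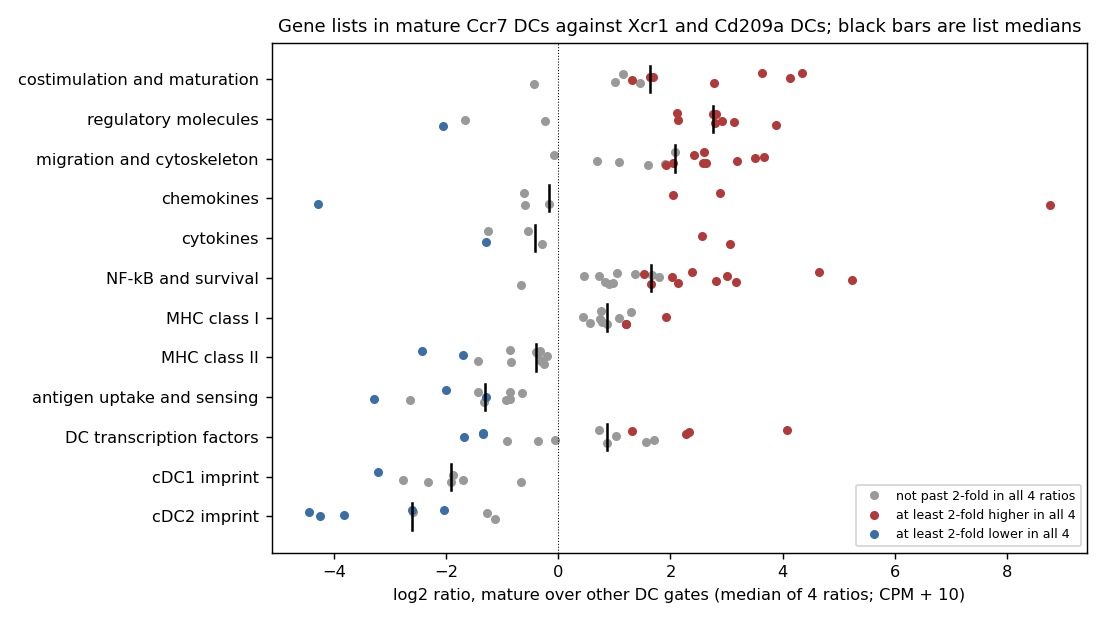
Median of the 4 log2 ratios of mature over other dendritic cells (CPM plus 10) for each measured gene of 12 lists, red and blue where all 4 ratios passed 2-fold and grey otherwise, with black bars at the list medians. Costimulatory, regulatory, migration and NF-kB genes lie mostly to the right of 0, and class II, uptake and imprint genes to the left.

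NF-kB signalling, above all its non-canonical arm through Map3k14, Relb and Nfkb2, drives dendritic cell maturation. Of 20 NF-kB and survival genes, 10 were higher and 0 lower (7 and 0 after cleaning), with a median of 1.66. Relb stood at 502 and 470 CPM against 45.8 to 121 CPM, Nfkb2 at 187 and 206 CPM against 35.1 to 89.0 CPM, and Map3k14, the kinase NIK, at 422 and 334 CPM against 41.8 to 155 CPM, though Map3k14 was not counted after cleaning. Traf1 stood at 518 and 561 CPM against 40.6 to 138 CPM, and Birc2, a ubiquitin ligase of the pathway, at 490 and 360 CPM against 28.7 to 72.8 CPM. Serpinb9 and Serpinb6b, intracellular protease inhibitors, stood at 464 and 595 CPM and at 552 and 608 CPM, against at most 33.4 and 17.9 CPM.

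The kappa B motif, GGGA then any 2 bases then TTCC, was searched on both strands of the 250 bases before each RefSeq start (GRCm38.p6). It was in 397 of 32851 promoters of all genes (1.21%), in 58 of 3277 matched genes of this comparison (1.77%), in 10 of 244 higher genes (4.10%) and in 0 of 216 lower genes. In the NF-kB and survival list 2 of 18 matched genes held it, Nfkb2 and Nfkbia. The promoters of higher genes are shown because each holds 1 match in a gene described here: B2m (chr2:122147437-122147686), Nfkb2 (chr19:46305445-46305694) and Slc44a5 (chr3:153973186-153973435), all on the plus strand, 5′ to 3′, with the match in capitals.
B2m: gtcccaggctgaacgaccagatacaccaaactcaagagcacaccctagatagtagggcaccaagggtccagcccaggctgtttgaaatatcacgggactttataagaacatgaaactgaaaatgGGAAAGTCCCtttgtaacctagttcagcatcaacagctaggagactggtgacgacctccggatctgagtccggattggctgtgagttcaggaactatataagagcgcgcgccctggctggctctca
Nfkb2: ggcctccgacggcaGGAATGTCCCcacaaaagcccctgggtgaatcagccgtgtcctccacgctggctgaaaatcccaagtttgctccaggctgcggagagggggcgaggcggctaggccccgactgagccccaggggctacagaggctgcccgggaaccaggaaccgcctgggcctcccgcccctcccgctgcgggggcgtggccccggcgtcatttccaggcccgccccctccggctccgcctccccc
Slc44a5: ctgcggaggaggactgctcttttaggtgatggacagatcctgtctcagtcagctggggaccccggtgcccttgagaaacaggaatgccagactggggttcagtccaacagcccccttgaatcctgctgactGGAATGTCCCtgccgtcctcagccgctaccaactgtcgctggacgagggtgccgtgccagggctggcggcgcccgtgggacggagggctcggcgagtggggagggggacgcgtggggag
The match begins 126 bases before the start in B2m, 236 before it in Nfkb2 and 119 before it in Slc44a5, and lies on the reverse strand in each. Nfkb2 has other starts as well. The window chr19:46305680-46305929 held a forward-strand match 225 bases before its start, and chr19:46304487-46304736 held none. Slc44a5, a choline transporter-like gene, was 1 of the 20 higher genes named by size, at 219 and 203 CPM against at most 9.24 CPM. A match describes letters in this window and shows no binding, and the windows of Ccl22, Fscn1 and Il12b held none.

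The transcription factors were split, with 4 of 15 higher and 3 lower (3 and 1 after cleaning). Stat4 stood at 621 and 676 CPM against 4.78 to 97.1 CPM, Etv3 at 488 and 416 CPM against 41.8 to 150 CPM, and Zbtb46 at 220 and 175 CPM against 22.2 to 64.7 CPM. Stat5a, which relays GM-CSF and other cytokines, was the fourth, and was not counted after cleaning. Klf4, a factor needed by part of the cDC2, stood at 92.99 and 91.0 CPM against 201 to 275 CPM, and Ahr and Zeb2 were also lower. After cleaning Ahr was the 1 counted lower.

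The 20 genes with the widest smallest ratio, chosen by size, were led by Ccl5, Il12b, Cacnb3, Mreg and Serpinb6b. Mreg, a vesicle transport protein first known from melanosomes, stood at 552 and 559 CPM against 8.09 to 12.9 CPM. Apol7c, an apolipoprotein L family gene, stood at 144 and 141 CPM with 0 UMIs in all 4 gates. Dscam and Dscaml1, cell adhesion molecules of neurons, stood at 114 and 125 CPM and at 161 and 138 CPM, again with 0 UMIs in all 4. Il2ra, the high-affinity chain of the IL-2 receptor, stood at 230 and 191 CPM against at most 8.36 CPM, and Zmynd15 at 405 and 305 CPM against 4.05 to 24.4 CPM. Nudt17, Serpinb9, Tnfrsf4, Tmem150c, Mmp25, Slc44a5, B3galt1, Adcy6, Slco5a1 and Slc22a23 made up the rest. Of the 10 lower genes, Siglech, Ccr9, Ly6d and Cox6a2 belong to the plasmacytoid list, of which 5 of 5 were lower. Siglech and Ly6d were used in the cleaning, after which no gene of that list reached the 50 CPM minimum. In the cleaned gates Siglech, Grm8 and Cd8b1 had 0 UMIs, Ly6d had 0 CPM against 10.9 CPM in vehicle members, and Cox6a2 turned to a log2 ratio of 0.16. Ccr2, which brings monocytes and dendritic cell precursors into tissue, stood at 2.42 and 5.57 CPM against 146 to 632 CPM, and Alox5ap, needed for leukotriene synthesis, at 29.0 and 39.0 CPM against 468 to 682 CPM. Grm8, Ccl4 and Cd8b1 were also among them.

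Few of the genes measured differed at least 2-fold between tamoxifen and vehicle members, the comparison for which the study was made. Of 3544 genes with at least 50 CPM in either library, 63 were at least 2-fold higher in tamoxifen members (1.78%) and 55 at least 2-fold lower (1.55%), 3.33% in all, around a median log2 ratio of -0.08. Scaling by median of ratios gave 77 higher and 43 lower. With the Epcam condition dropped the counts were 120 higher and 29 lower. The 5 markers moved by -0.20 to 0.08 on the log2 scale. None of 20 NF-kB and survival genes, 10 MHC class II genes or 9 regulatory genes passed 2-fold in either direction, with list medians of 0.06, -0.06 and -0.07. Of the other lists, costimulation had 2 higher and 1 lower of 13 tested, chemokines 1 higher of 7, cytokines 1 higher of 6 and MHC class I 1 higher of 11. Transcription factors had 1 higher of 15 and migration 1 lower of 15. The factor, Ahr, reached the minimum through the tamoxifen library alone (21.7 and 53.9 CPM). Its log2 ratio was 1.01, or 0.88 without its highest member. Larger shares came from cDC2 imprint (2 higher of 3), interferon-stimulated (2 higher of 5) and monocyte genes (1 higher of 1). Neutrophil and alveolar macrophage genes had 2 lower of 2 each, epithelial genes 2 lower of 3, and macrophage genes 1 each way of 2. Cd274, of the regulatory list, stood at 853 CPM in vehicle and 643 CPM in tamoxifen members, a log2 ratio of -0.40. Ccl17 and Ccl5 were below 2-fold in the summed UMIs as well. Ccl17 stood at 2052 and 3526 CPM (log2 0.78, interval 0.69 to 0.88) and Ccl5 at 5714 and 9631 CPM (log2 0.75, interval 0.70 to 0.81). Without the highest tamoxifen member of each, the log2 ratios were 0.55 and 0.54. On the vehicle side 1 member held 617 of 1699 Ccl17 UMIs and 1623 of 4731 Ccl5 UMIs, and ratios without it were not computed. Median UMIs per 10000 of a cell were 5.84 in vehicle and 15.8 in tamoxifen members for Ccl17, and 8.32 and 36.2 for Ccl5.

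Many of the genes past 2-fold drew most of their UMIs from 1 cell. A single member supplied at least 50% of the UMIs of the higher library in 35 of the 63 and 19 of the 55. The median share of the top member was 51.9% for the 63 and 27.7% for the 55, against 10.3% over all tested genes. When each gene's highest member was left out, 18 of the 63 and 19 of the 55 still passed 2-fold. Leaving out the highest member of the higher library mostly narrows a ratio and can turn it, so genes near 2-fold were lost with small shares too. Smc1a, a cohesin subunit, with 6.85% in its highest member, went from -1.06 to -0.995. In the tamoxifen library 3 members, of 26190, 14848 and 30481 UMIs, were the highest member of 20, 15 and 15 of the higher genes. In the vehicle library 1 member of 38184 UMIs led 13 of the lower genes.

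**Figure D4:**
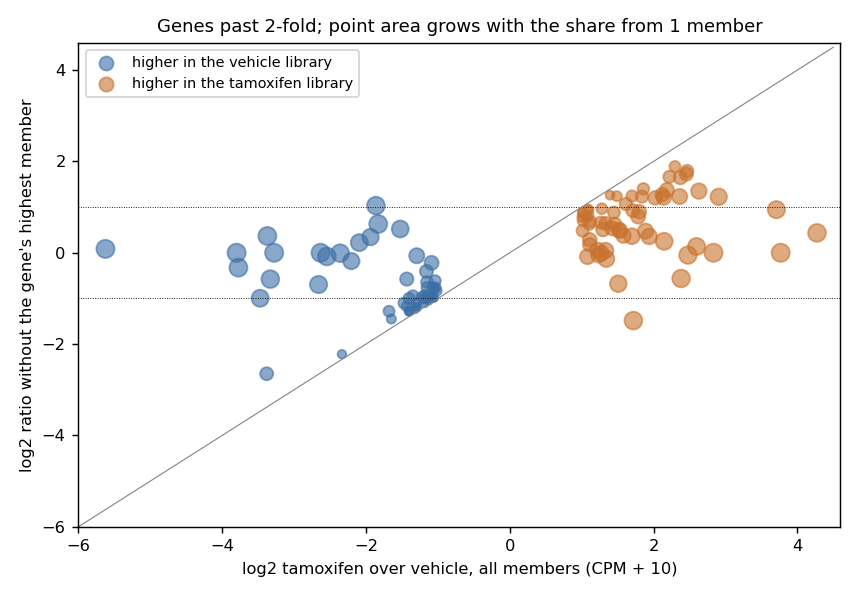
Each of the 118 genes past 2-fold, by its log2 ratio of tamoxifen over vehicle in all members (horizontal) and without the gene's highest member (vertical), with point area growing with that member's share and dotted lines at 2-fold. Points on the diagonal kept their ratio, and most of the largest points fall to between the dotted lines, with Mgp at the far left.

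Several of the largest falls came from 1 cell. Mgp, an extracellular matrix protein made by fibroblasts and smooth muscle, fell from 1307 to 16.7 CPM, and 98.9% of its 1082 vehicle UMIs came from 1 member. Without that cell its log2 ratio went from -5.62 to 0.08. Csmd1, Eln (elastin) and Igfbp2 had 100%, 98.1% and 100% from 1 member, and the fibroblast list as a whole had 99 of its 100 vehicle UMIs in 1 cell. The neutrophil list had 360 UMIs in vehicle members, 87.2% from 1 cell, and 19 in tamoxifen members. G0s2, a lipolysis inhibitor that neutrophils also express, had only 44.7% in that cell, and its log2 ratio of -3.38 stayed at -2.65 without it. The epithelial list had 957, 77.2% from 1 cell, against 188, and some of its UMIs were present in 51 of 53 and 38 of 38 members. The part of attached or doubled cells was not tested. In the vehicle library 2 members had a Scrublet doublet score of at least 0.25, and without them Mgp stood at a log2 ratio of 0.14.

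Several lower genes were spread over many cells. Like Mgp, Csmd1, Eln, Igfbp2 and G0s2 above, the lower genes named here reached the 50 CPM minimum through the vehicle library alone. They could only have been counted lower. Cxcr4, the receptor for Cxcl12, was in 27 of 53 vehicle members and 6 of 38 tamoxifen members, at 87.0 CPM (68.0 to 110) and 33.4 CPM (19.8 to 52.9). Its log2 ratio was -1.16 and stayed at -1.03 without the highest member. In all other cells of the libraries Cxcr4 stood at 72.8 and 50.5 CPM. Gdpd3, a lysophospholipase, was in 23 of 53 and 4 of 38 members, at 96.6 and 11.2 CPM, a log2 ratio of -2.33. All other cells showed the same direction for Gdpd3, with 65.4 and 15.9 CPM, and so did the Xcr1 and Cd209a gates, at -2.29 and -2.53. Ndnf, a secreted neurotrophic factor, was in 16 and 7 members, at 73.7 and 16.7 CPM, while all other cells held 49.0 and 60.1 CPM. Tm4sf5, a tetraspanin-like membrane protein, was in 15 and 9 members, at 123 and 31.6 CPM, and was rare in other cells, at 3.70 and 2.28 CPM. Slamf1, a receptor that lymphocytes and dendritic cells share, stood at 50.7 and 16.7 CPM and at a log2 ratio of -1.18, or -0.93 without its highest member. Of the other lower genes named by size, Csmd1, Ccl24, Nrn1, Ltbp2, Nupr1 and Tma16 had at least 84.9% of their vehicle UMIs in 1 member.

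Of 5 interferon-stimulated genes measured, Isg15 and Irf7 passed 2-fold upward in tamoxifen members. Both reached the 50 CPM minimum only through that library, so nothing is read from the count. Isg15, a ubiquitin-like modifier, stood at 39.9 and 175 CPM, and Irf7, the master factor of the type I interferon response, had 0 UMIs in vehicle members and 35 UMIs, 65.0 CPM, in tamoxifen members. Bst2 (tetherin) stood at 140 and 290 CPM, just short of 2-fold. Outside the list, Ifi27l2a stood at 27.8 and 199 CPM and Ifi205, a DNA-binding interferon-inducible protein, at 24.2 and 158 CPM. Ifi27l2a and Ifi205 were named by the size of their rise and reached the minimum through the tamoxifen library alone. They could only have been counted higher. The same tamoxifen member, of 14848 UMIs, was the highest for Isg15 (67.0% of its UMIs), Irf7 (80.0%), Ifi27l2a (41.1%) and Ifi205 (28.2%). Without it Isg15 stood at a log2 ratio of 0.47, and Irf7, Ifi27l2a and Ifi205 at 1.23, 1.79 and 1.89. That member also held 62 of the 97 UMIs of the monocyte list in tamoxifen members, 0.418% of its own UMIs, and it was the highest for Plac8, Ms4a4c, Ms4a6c and Ly6a. The part of monocyte RNA in these values was not tested. Isg15 was in 13 of 53 vehicle members and 11 of 38 tamoxifen members. In all other cells Ifi27l2a stood at 89.3 and 160 CPM and Isg15 at 15.03 and 31.1 CPM.

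Ligands and costimulators that were higher in tamoxifen members rested on single cells as well. Tnfsf4, which signals to OX40 on T cells, stood at 53.1 and 232 CPM, but was in 18 of 53 vehicle members and only 11 of 38 tamoxifen members, 1 of which held 70.4% of its UMIs. Without that cell the log2 ratio of Tnfsf4 went from 1.94 to 0.36. Cd70, the ligand of Cd27, stood at 20.5 and 78.0 CPM and went from 1.53 to 0.48, with the same cell as its highest. That cell, of 15964 UMIs, held 9 of 13 UMIs of the T cell list and 8 of 11 of the natural killer list in tamoxifen members, and 0 UMIs of Ccl22, Il12b and Cacnb3. The part of lymphocyte RNA in it was not tested. Tnf stood at 19.3 and 74.3 CPM and went from 1.52 to 0.50, and Cxcl9, which attracts Cxcr3-bearing T cells, stood at 9.66 and 53.9 CPM and went from 1.70 to 0.36. Cd70, Tnf and Cxcl9, too, reached the minimum through that library alone. H2-M2, a non-classical class I gene, was spread more widely: it was in 16 and 13 members, at 62.8 CPM (46.9 to 82.4) and 227 CPM (188 to 271), and its log2 ratio of 1.70 stayed at 1.24. H2-M2 did not differ in this way in all other cells, with 72.4 and 76.6 CPM, while its log2 ratio in the Xcr1 gate was 1.37. In the cleaned Xcr1 gates H2-M2 stood at 241 CPM in the vehicle and 190 CPM in the tamoxifen library.

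Further higher genes reached the 50 CPM minimum through the tamoxifen library alone, so they could only have been counted higher. Mgl2, a lectin for galactose-type sugars, was in 4 of 53 and 9 of 38 members, at 10.9 and 87.3 CPM, a log2 ratio of 2.22 that stayed at 1.66 without its highest member. All other cells went the other way for Mgl2, at 172 and 104 CPM, but the cleaned dendritic cell gates did not. Mgl2, a gene of the cDC2 list, stood at 608.5 CPM in vehicle and 1058 CPM in tamoxifen in the cleaned Cd209a gate. In the cleaned Xcr1 gate it stood at 121 and 187 CPM. Ms4a4c stood at 4.83 and 55.7 CPM, with 86.7% from 1 member. Pf4 (platelet factor 4, also made by tissue macrophages) had 95.4% of its tamoxifen UMIs in 1 member and went from 4.27 to 0.44. Ly6a and Klra8 had 100% from 1 member each, Cfb 88.6% and Saa3 92.0%. Nrgn and Slc1a2 stayed past 2-fold, at 1.23 and 1.72, but were seen in 4 tamoxifen members each. In bulk sums such as these, fewer cells with a gene and less of it per cell cannot be told apart from the level alone.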

How the data were processed

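Single-cell RNA was measured in 4 libraries, 1 per group. The authors deposited unnormalized UMI counts per gene and barcode, written by Cell Ranger 7.0.1 per the file headers, while the submitters' processing notes name Cell Ranger 7.2.0 and mm10; the use of intronic reads and strand is not given in the sources used here. No column was left without a sample. The members, gene lists and comparison gates were chosen with earlier results of these data known.

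Barcodes entered with 200 genes or more and a mitochondrial share of UMIs of no more than 20%. Members' UMIs were summed per library and scaled to CPM (numpy 2.4.6, pandas 2.3.3). Log2 ratios used 10 CPM added to both levels and a minimum of 50 CPM. Ratio intervals are exact conditional binomial and carry no added CPM, CPM intervals exact Poisson and share intervals Clopper-Pearson (scipy 1.17.1), all at 95%. They cover counting error only, and a count of 0 allows 3 counts. No p-value was computed, since a group has 1 library. Counting genes past 2-fold was tested on simulated sums with counting error only. The simulation held no uneven spread of UMIs over cells, so it does not cover genes led by 1 member.

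Doublets were scored with Scrublet in scanpy 1.11.5 (expected rate 0.06). Its automatic threshold marked 188 cells in the vehicle library and 1 in the tamoxifen library, so it had not worked there. Doublets were not removed, and a fixed score of 0.25 was an alternative. Gates ask for UMIs of their own genes and for 0 of Cd3e, Cd79a and Epcam where these are not their markers.

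Named genes are members of the lists, the 12 largest rises and falls with treatment and the 20 highest and 10 lowest against the other gates, leaving out mitochondrial, ribosomal, receptor-segment, sex-linked and clone-style names. For treatment, genes higher in the other cells of the library were left out as well. Genes named for being spread over many members or for 1 member's share were in part chosen after their values were seen. Of 302 list symbols 299 were found, and Cd58, Clec7a and Mx1 are not analysed here. A few genes that these rules name are not reported here. Gene positions are from GENCODE M21 (GRCm38), promoters from RefSeq, where 70 of 92 genes looked for matched. Alternatives covered the gate, filters, scaling, pseudocount, minimum, fold, thinning and single members.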

Additional observations from a re-analysis of the deposited data

How the results depend on the processing

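No paired analysis was possible because vehicle and tamoxifen have 1 library each, and the portions before and after depletion, which share suspensions, left 1 and 0 members after depletion. The share of mature cells stayed within its interval under the gate, filter and doublet settings tried, apart from those named here. It changed with the denominator (36.6% and 32.8% of gated dendritic cells for vehicle and tamoxifen) and without the Epcam condition (1.25% and 0.948%). The count of genes higher in tamoxifen members, 63, became 144 at a minimum of 20 CPM, 193 with no minimum, 20 at 4-fold, 120 without the Epcam condition (29 of them shared with the 63), 21 without each gene's highest member and 25 without the 3 leading members of each library (15 shared). The count lower, 55, became 90 with a pseudocount of 1 CPM, 169 at 20 CPM, 258 with no minimum, 92 with a mean over cells, 15 at 4-fold, 29 without the Epcam condition (17 shared) and 22 without the highest member. Against the other gates, 4-fold left 103 higher and 52 lower, and cleaned gates left 180 lower. Without thinning, the share with a UMI was 47.2% for Il12b and 75.5% for Ccl17 in vehicle members, 100% and 94.7% for Cd274, and 39.6% and 39.5% for Aldh1a2 in vehicle and tamoxifen members. Thinned to 5000 UMIs it was 85.3% for Ccl17 in tamoxifen members, and 20.4% and 23.5% for Aldh1a2. Another draw gave 69.2% for Cd274 in vehicle members. The cDC1-only share of vehicle members was 28.6% at 5000 UMIs and 25% in another draw, and the cDC2-only share was 11.5% when 2 UMIs were asked for. Log2 ratios changed sign without the highest member for S100a8 (0.37), Mgp (0.085), Nupr1 (0.22), Saa3 (-0.051), Tma16 (0.52) and Sftpc (0.34). They did so without the 3 leading members of each library for S100a8 (0.28), Nupr1 (0.18), Saa3 (-0.95) and Pf4 (-0.41). Removing cells of high doublet score turned S100a8 (0.34), Mgp (0.14) and Nupr1 (0.20), and cleaned gates turned Cox6a2 (0.16). In the single-member settings fewer cells enter by construction. For the others the cause was not tested. With 53 and 38 cells, genes near the minimum of 50 CPM rest on few UMIs.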
